A study of Mus musculus with 24 samples.

Results

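The livers of newborn mice whose dams drank taurine on a normal protein diet were compared with the livers of newborns of dams on the same diet without taurine. Both groups came from C57BL/6 pups killed on day 0 after birth. Their dams ate a diet with 20% casein from day 1 of pregnancy until birth. In the NPtau group the drinking water held 1% taurine, and in the NP group it held none. Each group had 3 liver arrays, so the comparison rests on 6 of the 24 arrays of the series. The other arrays are livers of LPtau and LP newborns, whose dams ate 8% casein with or without 1% taurine, and hindleg muscle of all 4 diets. The labels call the 3 samples of a group biological replicates and do not name dams or litters, so the p-values reflect only how much these samples vary, and pups of 1 litter cannot be told from pups of several. All genes with an unambiguous name on the array were described: 18193 genes out of 45101 probe sets, with 1 probe set per gene, taken as that with the highest average on the 12 liver arrays. Levels are log2 values, so a difference of 1 is a 2-fold change, and every difference is NPtau minus NP.

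Taurine is a sulfur-containing amino acid that cells make from cysteine and take up through dedicated transporters. In the liver it is joined to bile acids, acts as an osmolyte and reaches the fetus across the placenta. Supplying it to dams on a poor diet has been used to ask which effects of that diet it prevents, and the normal protein arms show what taurine alone goes along with.

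No gene passed the test between NPtau and NP livers. With limma and Benjamini-Hochberg adjustment 0 of 18193 genes were called at an adjusted p under 0.05, which is 0% of the genes, and the smallest adjusted p was 0.995. At an unadjusted p under 0.05 there were 500 genes, 281 with a higher and 219 with a lower mean in NPtau. That is 2.75% of the genes, where chance gives 5% on average. The data bound most differences. For 17048 genes (93.7%) the 95% interval of the difference lay within 1 log2 unit of 0, and for 10718 genes (58.9%) within 0.5. The median absolute difference was 0.106 and the median SE 0.150. Each SE of a liver difference was estimated from the spread within the diet groups of all 12 liver arrays, not from the compared arrays alone. A further 10092 probe sets with no single gene symbol gave 0 calls, with 392 of them at an unadjusted p under 0.05.

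**Figure D1:**
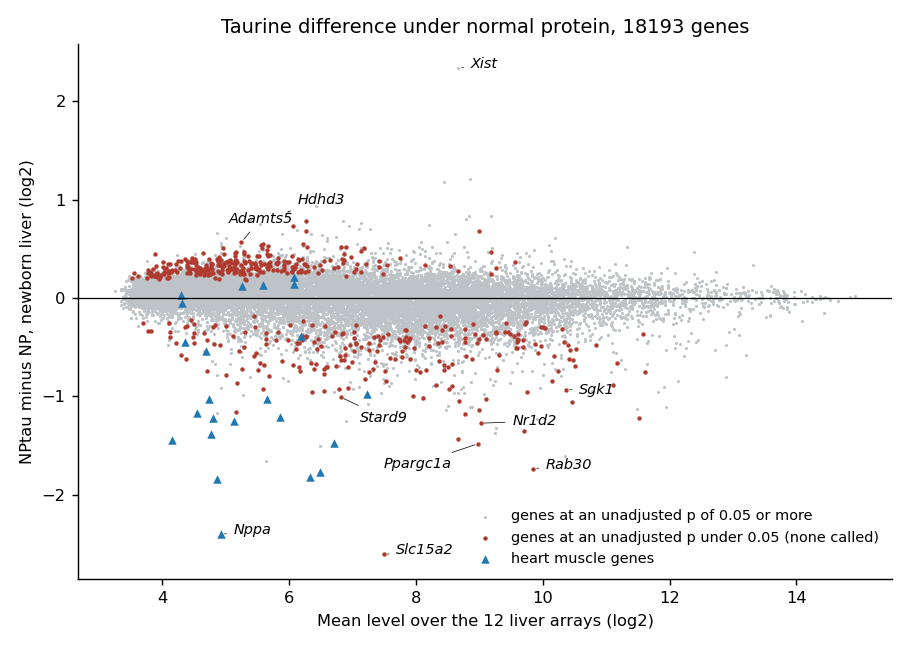
Difference between NPtau and NP livers (log2, vertical axis) against the mean level over the 12 liver arrays (log2, horizontal axis) for 18193 genes. Red points are the 500 genes at an unadjusted p under 0.05, none of which was called, and blue triangles are 23 heart muscle genes. Red points above 0 lie mostly at low levels, and the differences under -1 include Slc15a2 and Rab30 but also Nppa and other heart muscle genes.

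The labelled tissue was checked against its markers. Alb, the serum albumin gene, read 14.97, 15.01 and 14.96 in NPtau livers, against 14.96, 14.97 and 14.96 in NP livers. Afp, the fetal albumin homolog, read 14.70, 14.68 and 14.66 in NPtau livers, against 14.70, 14.69 and 14.74 in NP livers. Over 15 hepatocyte markers the list mean ran from 13.49 to 13.64 in NPtau livers and from 13.45 to 13.75 in NP livers, and the largest difference of a member in either direction was -0.18. These list means overlapped between the groups, but Alb and Afp read near 15.01, the highest deposited value, where a difference may not show. In whole tissue, fewer cells of a type and less RNA per cell cannot be told apart.

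The sex of the pups, heart muscle transcripts on 1 array and an array that stood apart touch what follows. By Xist and 3 Y-linked genes NPtau replicates 1 and 2 were female and replicate 3 male, whereas NP replicate 2 was female and replicates 1 and 3 male. NPtau replicate 2 had a mean correlation of 0.976 with the other 5 arrays, against 0.986 to 0.989 for each of the others. It lay over 1 log2 unit above all other 5 arrays at 36 genes and below all of them at 240 genes, whereas NPtau replicates 1 and 3 did so below at 8 and 1 genes. NP replicate 2 lay over 1 unit above all the others at 34 genes. Values without NPtau replicate 2 stand beside many of the lists and genes whose sign or size depended on it.

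What set NP replicate 2 apart was a heart muscle profile. Nppa, the atrial natriuretic peptide gene, read 4.22, 4.34 and 4.37 in NPtau livers, against 4.38, 11.44 and 4.31 in NP livers. Myh6, the alpha myosin heavy chain of heart muscle, read 4.27, 4.21 and 4.61 in NPtau livers, against 4.08, 10.53 and 4.004 in NP livers. Actc1, cardiac actin, read 5.71, 6.93 and 5.87 in NPtau livers, against 5.66, 12.76 and 5.40 in NP livers. In each case 1 NP array was far above the other 5. Of 23 heart muscle genes, picked as a list after these values were seen, NP replicate 2 was over 1 unit above the other 11 liver arrays at 16. Myl2 and Myh7, which encode ventricular myosin chains, were not among them: Myl2 read 4.23 and Myh7 4.62 on that array. The difference of Nppa between the groups was -2.40 with all arrays and -0.03 without NP replicate 2, and that of Myh6 was -1.84 and 0.32. Of the 44 genes with a difference under -1, 13 were heart muscle genes and 3 were Y-linked genes, of which the heart muscle genes were high on NP replicate 2 and the Y-linked genes on the male arrays. Another 20 overlapped between the groups, and 8 had all NPtau values below all NP values, where 2.4% of all genes did. Genes picked for a difference under -1 separate more readily, so that count is no result about them. The set of genes under -1 turned over with single arrays: there were 73 without NP replicate 2, including 29 of the 44, and 34 without NPtau replicate 2, including 21 of the 44. Only 3 genes had a difference over 1: Xist at 2.33, and G0s2 at 1.20 and Ppp1r3c at 1.18, both of which overlapped between the groups and are named here after their values were seen.

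Genes of taurine handling bear most directly on what differed between the diets. None of the 11 genes for taurine uptake, synthesis and conjugation was called, none was at an unadjusted p under 0.05, and in none did the groups separate. Their median difference was -0.07, with 4 of 11 positive, against 0.03 and 58.1% positive over all genes. The list mean was -0.08, -0.15 and -0.04 on NPtau replicates 1, 2 and 3 relative to the NP mean, against -0.03, 0.02 and 0.01 on the NP arrays. The median was -0.02 without NPtau replicate 2. Slc6a6 encodes TauT, the main taurine transporter of the plasma membrane. It read 10.23, 9.34 and 9.85 in NPtau livers, against 10.88, 10.37 and 9.51 in NP livers, a difference of -0.45 (SE 0.30, n = 3 each) with a 95% interval from -1.11 to 0.22. The highest NPtau value lay between the lowest and the middle NP value. Leaving out 1 array gave from -0.82 (without NP replicate 3) to -0.13 (without NP replicate 1), and -0.21 without NPtau replicate 2. The taurine difference of Slc6a6 was -0.50 (SE 0.30, LPtau minus LP) under low protein and -0.49 (SE 0.19) in NPtau minus NP muscle, and neither was called (adjusted p = 0.684 and 1.00 with limma). Slc6a13, a GABA transporter that also carries taurine, averaged 9.13 ± 0.25 in NPtau livers and 9.09 ± 0.21 in NP livers (SD, n = 3 each), and its difference of 0.03 was -0.11 without NPtau replicate 2.

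The enzymes that make taurine showed no separation either. Cdo1 encodes cysteine dioxygenase, which starts the route from cysteine. It read 12.38, 11.42 and 11.85 in NPtau livers, against 12.05, 12.33 and 11.92 in NP livers, and the difference of -0.21 (SE 0.29) had an interval from -0.85 to 0.42 and was 0.02 without NPtau replicate 2. Csad encodes cysteine sulfinate decarboxylase, the next enzyme, which yields hypotaurine. Csad read 11.05, 11.06 and 11.40 in NPtau livers, against 11.23, 11.52 and 11.62 in NP livers, a difference of -0.29 (SE 0.16) with an interval from -0.65 to 0.07. Both female NPtau values of Csad were below all NP values and the male one was not; the difference was -0.47 within females and -0.03 within males. Under low protein the taurine difference of Csad ran the other way, at 0.63 (SE 0.16, adjusted p = 0.253 with limma). The test of the difference between both taurine effects gave -0.92 (SE 0.23) with an adjusted p of 0.407. Ado, the dioxygenase of the parallel route from cysteamine, had a difference of -0.08, Gadl1, a decarboxylase related to Csad, had 0.13, and Fmo1, which can oxidise hypotaurine to taurine, had -0.06. Without NPtau replicate 2 these 3 were -0.02, 0.08 and -0.42.

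**Figure D2:**
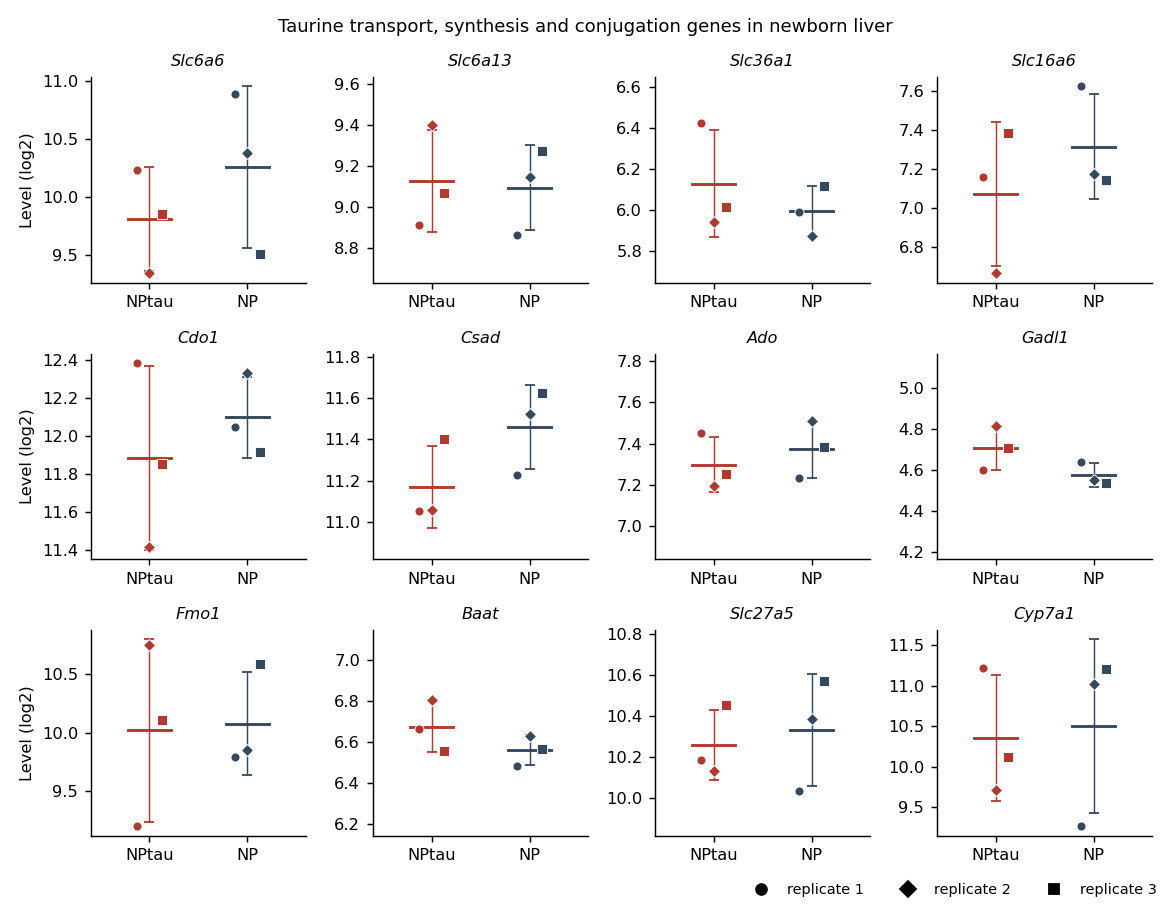
Levels (log2) of 11 taurine genes and Cyp7a1 on the 3 NPtau (red) and 3 NP (dark) liver arrays. Circles, diamonds and squares are replicates 1, 2 and 3, horizontal lines are means, bars are SD, and each panel has its own axis range of at least 1 log2 unit. The groups overlap in all 12 panels.

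Bile acid conjugation and synthesis, the main hepatic use of taurine, gave overlapping values. Baat joins taurine or glycine to bile acids, and it averaged 6.68 ± 0.12 in NPtau livers and 6.56 ± 0.07 in NP livers (SD, n = 3 each), a difference of 0.11 that was 0.05 without NPtau replicate 2. Slc27a5 encodes the ligase that activates bile acids for that step, and its difference was -0.07 (SE 0.21), and -0.01 without NPtau replicate 2. Of 11 bile acid synthesis genes 3 had a positive difference, the median was -0.08, and none separated. Without NPtau replicate 2 the direction turned, with 7 of 11 positive and a median of 0.01. Cyp7a1, the rate-limiting enzyme of the classical route, read 11.22, 9.72 and 10.13 in NPtau livers, against 9.27, 11.02 and 11.21 in NP livers. It varied over almost 2 log2 units within NP alone, and its difference of -0.14 had an SE of 0.54 and was 0.17 without NPtau replicate 2. Cyp8b1, which sets the share of cholic acid, had a difference of -0.02 (SE 0.36), and 0.08 without that array.

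Among 18 genes of bile acid transport and sensing, 3 had all NPtau values below all NP values, where 2.4% of all genes did (437 of 18193), and 0 had all of them above, where 5.44% did (989 genes). The 3 were canalicular ABC transporters. Abcg8, which with Abcg5 exports cholesterol into bile, read 7.48, 7.08 and 7.25 in NPtau livers, against 7.80, 7.79 and 7.51 in NP livers, a difference of -0.43 (SE 0.17, unadjusted p = 0.02998 with limma). Abcg5 read 7.59, 5.21 and 7.49 in NPtau livers, against 8.07, 7.75 and 7.70 in NP livers. Its difference of -1.08 (SE 0.61) was set by NPtau replicate 2 and was -0.30 without it. Abcc2, the canalicular exporter of conjugated organic anions, read 8.93, 8.51 and 8.98 in NPtau livers, against 9.36, 9.08 and 9.12 in NP livers (-0.38, SE 0.15, and -0.23 without NPtau replicate 2). The bile salt export pump Abcb11, at -0.17 (SE 0.31), and the sinusoidal bile acid importer Slc10a1, at 0.17 (SE 0.20) and 0.04 without NPtau replicate 2, overlapped. Over the whole list 10 of 18 genes were positive with a median of 0.11, and without NPtau replicate 2 the sign turned (8 of 18, median -0.04).

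Sulfur amino acid genes upstream of taurine had 11 of 18 positive differences in the methionine cycle and transsulfuration list, with a median of 0.10. That median was 0.02 without NPtau replicate 2 and -0.09 within males. Suox, sulfite oxidase, read 7.82, 7.59 and 6.64 in NPtau livers, against 5.81, 6.94 and 7.03 in NP livers, and the difference of 0.76 (SE 0.38) left the groups overlapping. In the glutathione list 4 of 12 genes were positive, with a median of -0.04 (-0.06 without NPtau replicate 2). Gclc, the first enzyme of glutathione synthesis, had -0.48 (SE 0.31), and -0.21 without that array. Osmotic stress genes bound by NFAT5, the factor that drives osmolyte transporters such as TauT, had 3 of 8 positive and a median of -0.16 (-0.23 without NPtau replicate 2). The amino acid transporter Slc38a2 read 9.65, 10.12 and 10.42 in NPtau livers, against 10.41, 10.76 and 10.77 in NP livers (-0.59, SE 0.23). Only NPtau replicate 3 reached the NP values, at the level of NP replicate 1, and both were male.

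The smallest unadjusted p-values in either direction belonged to modest differences. On the lower side Osbpl3, an oxysterol-binding protein relative, read 5.11, 5.28 and 5.33 in NPtau livers, against 5.63, 5.72 and 5.78 in NP livers, with an unadjusted p of 0.000558, the smallest of all genes. Rbsn, an effector of early endosomes, read 6.80, 6.21 and 6.42 in NPtau livers, against 7.23, 7.08 and 7.01 in NP livers (-0.63, SE 0.15). For both of these genes only 1 of 3 probe sets had a negative difference. Robo1, a SLIT receptor, read 6.18, 6.41 and 5.88 in NPtau livers, against 6.48, 7.09 and 7.14 in NP livers (-0.75, SE 0.18). Fnip1, a partner of folliculin in nutrient sensing, read 8.78, 8.74 and 8.54 in NPtau livers, against 9.45, 9.37 and 9.004 in NP livers (-0.59, SE 0.15), and all 3 of its probe sets had that sign. Sdc4, a cell surface heparan sulfate proteoglycan, had a difference of -0.84 (SE 0.22), -1.08 within females and -0.45 within males. Klf12, Stard9, Sec22c, Zfp948 and Zfp867 made up the rest of the 10, with differences from -0.35 to -1.01. All probe sets of a gene had the same sign for 5 of these 10 genes.

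On the higher side all 10 genes with the smallest p lay below the median level of 6.41. Cacna1d, an L-type calcium channel subunit, read 5.61, 5.98 and 5.91 in NPtau livers, against 5.40, 5.36 and 5.39 in NP livers (0.45, SE 0.11). Only 1 of its 2 probe sets was positive. Adamts5, an aggrecanase, read 5.28, 5.77 and 5.34 in NPtau livers, against 4.87, 4.75 and 5.07 in NP livers (0.57, SE 0.15), with all 4 probe sets positive. Hoxb5os, an antisense RNA of the Hoxb cluster, read 6.09, 6.57 and 6.75 in NPtau livers, against 5.81, 5.97 and 5.60 in NP livers (0.68, SE 0.20). Ftmt, Fgf11, Pcdh9, Ccdc166, Pifo, Dnase1l2 and Cdcp3 had differences between 0.33 and 0.45. Among them Pcdh9 was positive at 2 of 3 probe sets and Ccdc166 at 1 of 2. The same skew in level held across the array: the 989 genes with all NPtau values above all NP values had a median level of 4.86, and the 437 genes with all of them below had 7.23. Genes below the median level had a median difference of 0.07 and genes above it -0.02. NPtau replicate 2, whose 25th percentile of all probe sets was 4.37 against 4.27 to 4.32 on the other 5 arrays, was the NPtau array farthest from NP at 535 of these 989 genes and 274 of these 437. Its part in that skew was not tested.

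**Figure D3:**
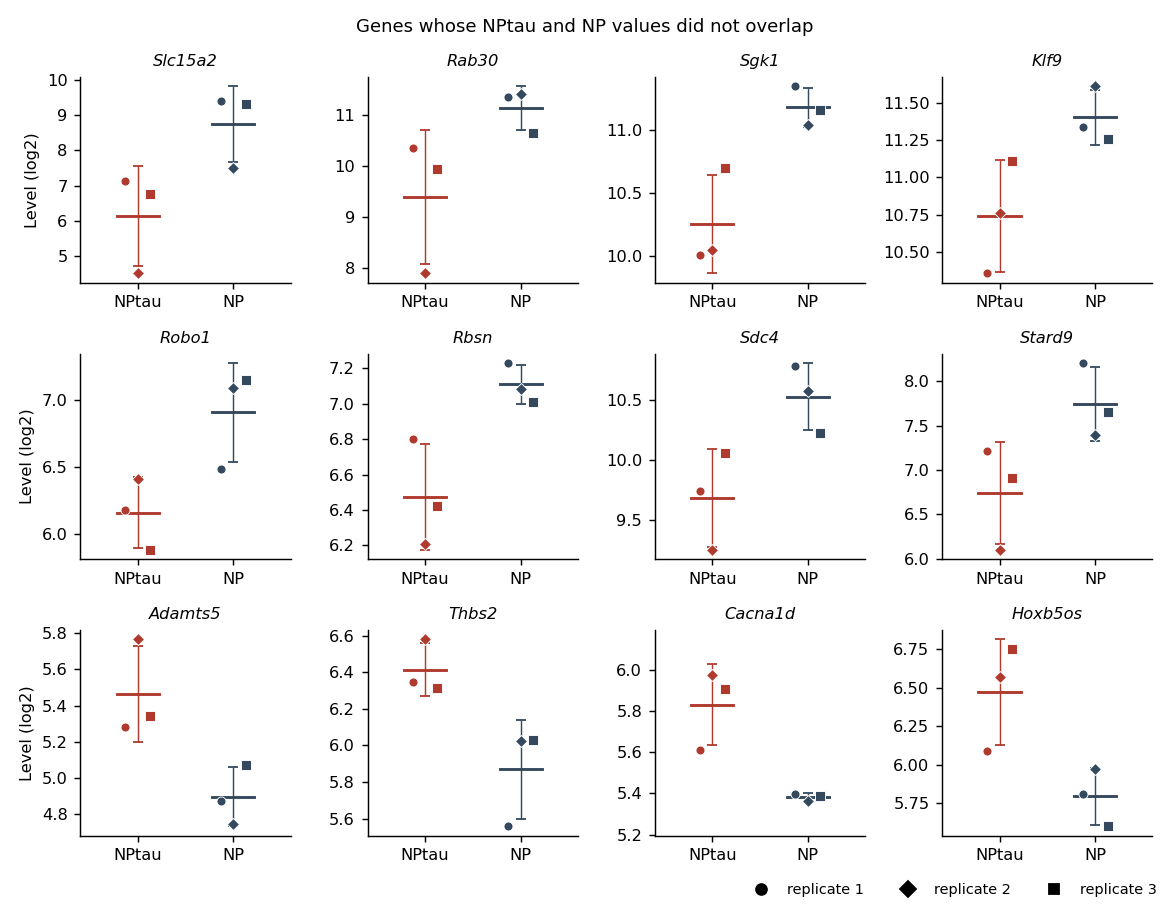
Levels (log2) of 12 genes whose 3 NPtau values (red, left) lay all below or all above the 3 NP values (dark, right), with replicates 1, 2 and 3 as circles, diamonds and squares, means as lines and SD as bars. NPtau replicate 2 is the lowest point for Slc15a2, Rab30, Rbsn, Sdc4 and Stard9 and not for Sgk1, Klf9 or Robo1.

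Among separated genes the largest difference of means was at Slc15a2, which encodes PEPT2, a proton-coupled transporter of di- and tripeptides. It read 7.13, 4.50 and 6.75 in NPtau livers, against 9.40, 7.49 and 9.32 in NP livers. The difference was -2.60 (SE 0.83, unadjusted p = 0.00904 and adjusted p = 0.995 with limma), -1.79 without NPtau replicate 2, -1.67 within females and -2.60 within males. Muscle of the same diets and replicate numbers gave the same direction. Slc15a2 read 6.18, 3.94 and 5.42 in NPtau muscle, against 7.69, 6.82 and 7.87 in NP muscle, from the same probe set (-2.28, SE 1.01, adjusted p = 1.00 with limma). In both tissues all NPtau values were below all NP values, replicate 2 was the lowest of each group, and the liver difference less the muscle difference was -0.33 (SE 1.39). Liver and muscle arrays of the same diet and number had the same sex in 12 of 12 cases, and the labels do not say whether they came from the same pups. The low protein groups spread as widely: Slc15a2 read 9.03, 6.92 and 8.77 in LPtau livers, against 7.93, 6.81 and 5.81 in LP livers, so that pups of a single diet differed by over 2 units. Of all 18193 genes, 39 separated in the same direction in both tissues, where in liver alone 5.44% separated upwards and 2.4% downwards. How many would do so in both by chance was not tested. Slc15a2 was the only one of the 39 to exceed 1 unit in both. Its 3 probe sets did not all have the same sign (2 were negative).

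**Figure D4:**
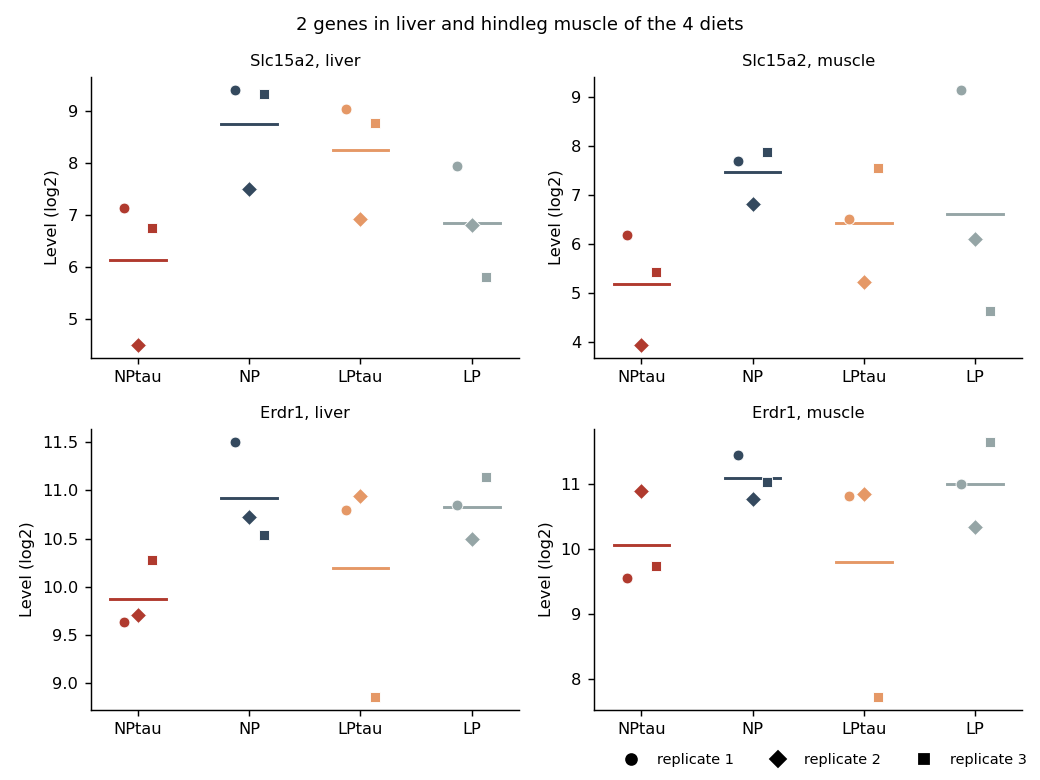
Levels (log2) of Slc15a2 (top) and Erdr1 (bottom) in liver (left) and hindleg muscle (right) of the 4 diets, with replicates 1, 2 and 3 as circles, diamonds and squares and group means as lines; the tissues were normalized separately. The order of the replicates within a diet is much alike in liver and muscle for Slc15a2, and LPtau replicate 3 is the lowest Erdr1 value in both tissues.

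Erdr1, annotated on the X chromosome and named as a regulator of erythroid differentiation, had a pattern of the same kind that was less even. It read 9.64, 9.71 and 10.27 in NPtau livers, against 11.51, 10.72 and 10.54 in NP livers (-1.05, SE 0.48). In muscle it read 9.56, 10.89 and 9.74 in NPtau pups, against 11.45, 10.78 and 11.04 in NP pups (-1.02, SE 0.73), where NPtau replicate 2 overlapped with NP. LPtau replicate 3 stood below every other array in both tissues, at 8.85 in liver and 7.73 in muscle.

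Rab30, a small GTPase of the Golgi, was next in size among separated genes. It read 10.34, 7.90 and 9.94 in NPtau livers, against 11.34, 11.40 and 10.64 in NP livers, a difference of -1.73 (SE 0.52) that was -0.99 without NPtau replicate 2. Under low protein its taurine difference had the opposite sign: 11.38, 10.34 and 11.21 in LPtau livers, against 7.88, 8.00 and 7.82 in LP livers (3.08, SE 0.52, adjusted p = 0.0740 with limma). The NPtau values were thus below NP, with replicate 2 within the LP range, and the LPtau values were near NP. The difference between both taurine effects was -4.81 (SE 0.74), with an adjusted p of 0.201 over all genes. With NPtau replicate 2 left out it was -4.06 (SE 0.41) and passed at an adjusted p of 0.0144. In muscle, read by another probe set, Rab30 differed by 0.07 (SE 0.30). Kif21a, a kinesin, Ifrd1, a stress-induced regulator, and Cobll1 also separated, with group means over 1 unit apart. For all 3 NPtau replicate 2 was the farthest NPtau array, and without it their differences were -0.51, -0.73 and -0.57.

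Glucocorticoid targets and gluconeogenesis had the lowest medians of the 56 gene lists, followed by cholesterol synthesis and then by the cAMP and FOXO lists. Around birth the pup loses its placental glucose supply, and glucocorticoids, glucagon acting through cAMP, and FOXO factors switch on gluconeogenesis in the liver. Glucocorticoid targets had a median of -0.36 with 3 of 20 positive, and 2 of the 20 separated downwards, where 2.4% of all genes did. The list mean was -0.42, -0.49 and -0.19 on NPtau replicates 1, 2 and 3 relative to the NP mean, against 0.01, -0.01 and 0.00 on the NP arrays, so all 3 NPtau arrays were below all 3 NP arrays. List means separated in the same way for gluconeogenesis and glycogen, p53 and apoptosis, and taurine uptake and synthesis, and upwards for pancreatic acinar markers. These were found among 56 lists, some of which share members and so are not separate results. Ppargc1a is in both the gluconeogenesis and cAMP lists, and Sgk1 in both the glucocorticoid and osmotic stress lists. With 3 arrays against 3, chance separates 10% in either direction, and 7.84% of all genes separated. The nearest arrays of the groups were close for gluconeogenesis (-0.10 in NPtau, -0.07 in NP) and taurine genes (-0.04 and -0.03). The median of the glucocorticoid list was -0.25 without NPtau replicate 2 and -0.16 within males. Under low protein the same list had a median taurine difference of 0.30, and in muscle -0.03. LP replicate 1 stood apart at some members: Klf9 read 11.54, 11.30 and 11.33 in LPtau livers, against 9.99, 11.83 and 11.76 in LP livers. How far that array set the low protein median was not tested.

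The 2 separated members were Sgk1 and Klf9. Sgk1, a serum- and glucocorticoid-induced kinase, read 10.01, 10.05 and 10.70 in NPtau livers, against 11.35, 11.04 and 11.16 in NP livers (-0.93, SE 0.29, adjusted p = 0.995 with limma). Its difference was -1.01 within females (2 NPtau arrays and 1 NP array), -0.55 within males and -0.83 without NPtau replicate 2. Groups that separate over all arrays also separate within each sex, so the split by sex adds no support. Klf9, a Kruppel-like factor induced by glucocorticoids and thyroid hormone, read 10.36, 10.76 and 11.11 in NPtau livers, against 11.34, 11.61 and 11.26 in NP livers (-0.66, SE 0.40). Tat, tyrosine aminotransferase, read 10.96, 9.10 and 11.10 in NPtau livers, against 10.81, 12.37 and 11.62 in NP livers, and it overlapped (-1.22, SE 0.54). Its difference was -0.57 without NPtau replicate 2 and -0.12 within males. Zbtb16 (-0.84, SE 0.44) and the chaperone gene Fkbp5 (-0.45, SE 0.25, and -0.22 without NPtau replicate 2) overlapped as well, and Nr3c1, the receptor gene itself, had -0.10. Since the glucocorticoid receptor binds repeats of a short site, AGAACA or its reverse complement TGTTCT, the RefSeq promoters of these genes (250 bases before to 50 after a start, assembly GRCm38.p6) were searched on both strands. This site was in 18.97% of all 32851 promoters and in a promoter of 3 of the 17 glucocorticoid list genes that matched by symbol. The first share counts promoters and the second counts genes, which can have several promoters, so the 2 are not on the same footing. Sgk1 has 6 listed starts, of which the one at chr10:21993640-21993939 was chosen for print because it holds 3 such sites, in capitals. The promoter of Klf9 holds 0.
Sgk1 promoter, plus strand: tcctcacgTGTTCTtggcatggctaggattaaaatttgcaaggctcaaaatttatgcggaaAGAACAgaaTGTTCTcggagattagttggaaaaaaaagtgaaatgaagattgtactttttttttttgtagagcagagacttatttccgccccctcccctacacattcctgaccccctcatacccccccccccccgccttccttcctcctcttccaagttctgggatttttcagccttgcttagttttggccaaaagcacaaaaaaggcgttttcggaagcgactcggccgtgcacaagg

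Gluconeogenesis and glycogen genes had a median of -0.34, with 2 of 14 positive, and -0.09 without NPtau replicate 2. Ppargc1a, the coactivator PGC-1alpha, read 8.39, 7.43 and 8.05 in NPtau livers, against 10.24, 9.79 and 8.28 in NP livers. NP replicate 3 lay just below the highest NPtau value, and the difference was -1.48 (SE 0.64, unadjusted p = 0.0402 with limma), -1.21 without NPtau replicate 2. Gys2, liver glycogen synthase, read 9.94, 10.15 and 9.73 in NPtau livers, against 10.28, 10.32 and 10.12 in NP livers (-0.30, SE 0.12). Pck1, the rate-limiting enzyme of gluconeogenesis, read 12.23, 10.22 and 12.48 in NPtau livers, against 12.24, 12.47 and 12.75 in NP livers: its difference was -0.84 with all arrays and -0.13 without NPtau replicate 2. G6pc, which releases free glucose, was -0.47 and -0.16 in the same way. The cAMP and fasting list had a median of -0.26 (6 of 17 positive) and -0.40 without NPtau replicate 2, and Crem, a cAMP-induced repressor, read 7.06, 7.36 and 8.41 in NPtau livers, against 8.51, 8.11 and 8.73 in NP livers.

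FOXO targets and autophagy genes had a median of -0.23 (3 of 18 positive) and 3 separated downwards, where 2.4% of all genes did. Igfbp1, a FOXO target that binds insulin-like growth factors, read 14.41, 14.39 and 14.44 in NPtau livers, against 14.62, 14.53 and 14.55 in NP livers. That difference of -0.16 (SE 0.09) is small, near the top of the scale. In muscle Igfbp1 differed by 1.33 (SE 0.73), with all NPtau values above all NP values. Bnip3, a mitophagy receptor, had -0.35 (SE 0.19), and Txnip, a redox regulator that rises with glucose and is named here after its values were seen, had -0.46 (SE 0.45). The clock list, whose members include glucocorticoid-responsive genes, had a median of -0.08. Nr1d2, a nuclear receptor of the clock, read 7.55, 7.86 and 9.69 in NPtau livers, against 10.11, 8.89 and 9.92 in NP livers (-1.27, SE 0.58). Both female NPtau pups were low and the male NPtau pup was not, so that the difference was -0.32 within males. Arntl, which encodes BMAL1, read 7.99, 7.72 and 8.06 in NPtau livers, against 8.24, 8.32 and 8.23 in NP livers (-0.34, SE 0.16).

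Lipid synthesis varied between pups more than between diets. Cholesterol synthesis and uptake genes had a median of -0.30 with 2 of 19 positive. Their list mean was -1.04, 0.16 and 0.11 on the NPtau arrays, against 0.17, -0.54 and 0.37 on the NP arrays, so that 1 NPtau pup and 1 NP pup, both female, were low. Without NPtau replicate 1 the median turned to 0.16. Cyp51, lanosterol demethylase, read 8.42, 9.06 and 10.02 in NPtau livers, against 9.87, 8.79 and 10.13 in NP livers (-0.43, SE 0.43). Fatty acid and triglyceride synthesis followed the same arrays, with a median of -0.20 and list means of -0.51, -0.19 and 0.07 on the NPtau arrays, against 0.04, -0.37 and 0.34 on the NP arrays. Me1, malic enzyme, had -0.56 (SE 0.27) and Gpd1, glycerol phosphate dehydrogenase, 0.41 (SE 0.21, and 0.25 without NPtau replicate 2). Fatty acid oxidation and ketogenesis had a median of -0.04, and Cpt1a, which admits fatty acids to mitochondria, had -0.02 (SE 0.26), and 0.18 without NPtau replicate 2.

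**Figure D5:**
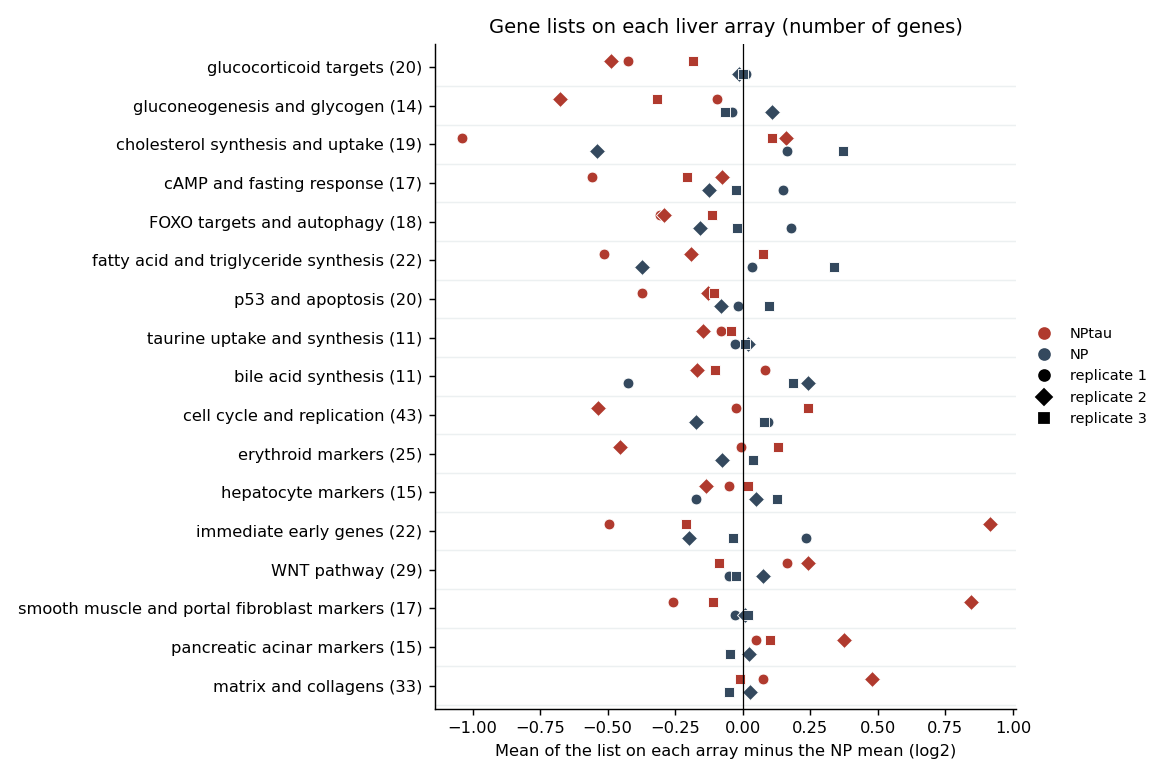
Mean of each gene list on each liver array minus the NP mean (log2, horizontal axis), for lists with the lowest and highest medians and lists named in the text, with the number of genes in brackets. NPtau arrays are red and drawn above NP arrays, and circles, diamonds and squares are replicates 1, 2 and 3. All 3 NPtau arrays lie below the NP arrays for glucocorticoid targets, gluconeogenesis, p53 and taurine genes, and above them for pancreatic acinar markers, whereas NPtau replicate 2 alone is far right for immediate early genes, smooth muscle markers and matrix.

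The highest list medians were lower without NPtau replicate 2. Matrix and collagen genes had a median of 0.19 with 25 of 33 positive, and 5 separated upwards (Adamts5, Thbs2, Bgn, Fbln1 and Sparc), where 5.44% of all genes did. The list mean was 0.08, 0.48 and -0.01 on the NPtau arrays, against 0.03, 0.03 and -0.05 on the NP arrays. Without NPtau replicate 2 the median was 0.03. Thbs2, a matricellular thrombospondin, read 6.35, 6.58 and 6.32 in NPtau livers, against 5.56, 6.02 and 6.03 in NP livers (0.54, SE 0.19, and 0.46 without NPtau replicate 2). Bgn, biglycan, read 9.53, 10.03 and 9.66 in NPtau livers, against 9.37, 9.45 and 9.39 in NP livers (0.34, SE 0.17, and 0.19 without NPtau replicate 2). Smooth muscle and portal fibroblast markers had a list mean of -0.26, 0.84 and -0.11 on the NPtau arrays, against -0.03, 0.01 and 0.02 on the NP arrays, and their median went with that array (0.17 with it and -0.09 without). Immediate early genes moved with it too, at -0.50, 0.91 and -0.21 on the NPtau arrays, against 0.23, -0.20 and -0.04 on the NP arrays. Cell cycle genes and erythroid markers were lowest on NPtau replicate 2, at -0.54 and -0.45. Their medians were -0.07 and -0.12 with that array, and 0.14 and 0.15 without it. Pancreatic acinar markers had 13 of 15 positive and a median of 0.18, with 2 separated upwards, where 5.44% of all genes did. Without NPtau replicate 2 the median was 0.08, with 13 of 15 still positive. Their list mean ran from 5.46 to 5.79 in NPtau livers and from 5.37 to 5.44 in NP livers, and only 3 of the 15 lay above the median level of all genes. Genes below that level had a median difference of 0.07. The part of these cell types in other results was not tested.

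Growth and WNT genes differed little. Igf1 read 7.59, 8.74 and 8.96 in NPtau livers, against 8.40, 7.70 and 8.56 in NP livers (0.21, SE 0.31, and 0.05 without NPtau replicate 2), and Igf2, the main fetal growth factor of the family, averaged 13.58 ± 0.13 in NPtau livers and 13.61 ± 0.08 in NP livers (SD, n = 3 each). The insulin-like growth factor list had 9 of 19 positive and a median of -0.02, and 12 of 19 and 0.04 without NPtau replicate 2. In the WNT list 20 of 29 were positive, the median was 0.11 (0.01 without NPtau replicate 2), and 4 separated upwards (Rnf43, Lgr5, Sp5 and Sfrp1), where 5.44% of all genes did. Only 10 of the 29 lay above the median level of all genes, and genes below that level had a median difference of 0.07. Rnf43, which removes WNT receptors from the cell surface, read 5.57, 5.49 and 4.80 in NPtau livers, against 4.70, 4.79 and 4.57 in NP livers (0.60, SE 0.32). Its receptors Fzd1 and Fzd4 were also high on both female NPtau arrays: Fzd4 read 8.59, 8.60 and 7.72 in NPtau livers, against 7.87, 7.80 and 7.84 in NP livers. The female NP array was not high for Fzd4.

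Energy and translation genes had small differences of like sign. Complex I of the respiratory chain had 30 of 33 positive with a median of 0.09, and the mitochondrial ribosome 52 of 63 with 0.10. Without NPtau replicate 2 these became 12 of 33 with -0.02, and 40 of 63 with 0.03. The list mean of complex I was 0.04, 0.30 and -0.08 on the NPtau arrays, against -0.16, 0.15 and 0.01 on the NP arrays, so that the replicates numbered 2 were the highest of both groups. Cytosolic ribosome genes had 28 of 31 positive and a median of 0.05, and 22 of 31 and 0.02 without NPtau replicate 2. No member of these 3 lists was called.

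The taurine difference under normal protein was set beside that under low protein, which shares no array with it. The test of the difference between them gave 0 called genes (0%; smallest adjusted p 0.201 with limma) and 1540 genes at an unadjusted p under 0.05. LPtau minus LP alone had 12 called genes and a median absolute difference of 0.128. Across the 18193 genes, which are not independent replicates, both differences had a correlation of -0.23, and 60.7% of genes had opposite signs. With sex in the model the correlation was -0.19, and without NPtau replicate 2 it was also -0.19. In the fit with array weights, LP replicate 1 had a weight of 0.327, close to the 0.325 of NPtau replicate 2. The correlation without LP replicate 1 was not computed. The share of females ran in opposite directions, with Xist at 2.33 in NPtau minus NP and -2.13 in LPtau minus LP. The test of liver against muscle likewise gave 0 called genes (0%), with 213 at an unadjusted p under 0.05, and NPtau minus NP muscle alone had 0 called and 88 at an unadjusted p under 0.05.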

How the data were processed

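Per the labels, biotin-labelled total RNA of 24 samples was read on Affymetrix mouse arrays. The authors deposited log2 levels per probe set. RMA, R 2.7.0 and MAS5 are named per the submitters' processing notes, without their roles, and liver and muscle were normalized separately, per the labels. No further normalization or low-value filter was applied. The array median of the 12 liver arrays lay between 5.35 and 5.39. Precision depends on having 3 arrays per group.

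Of the probe sets, 34945 had 1 gene symbol, 932 several, 9160 none and 64 were controls. The 12 liver arrays were fitted with limma 3.58.1 in R 4.3.3, with 1 mean per diet, a shared spread and Benjamini-Hochberg adjustment over 18193 genes. With 3 arrays in each group, 0.1 is the smallest two-sided p of an exact test. The code was tested on simulated data.

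The comparison, the 56 gene lists and the tests were chosen with earlier results of these data known, and the heart muscle list after seeing these values. List members mean those with a probe set of 1 symbol here. Genes named are the 10 with the smallest p and the 10 with the largest difference in each direction among separated genes, 2 per list by p (6 for the 4 highest and 4 lowest list medians), and fixed taurine, bile acid, growth and fasting genes. Clone names were skipped. Alternatives were other normalizations, array weights, sex, a replicate block, other probe set rules and leaving out each NPtau or NP array.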

Additional observations from a re-analysis of the deposited data

How the results depend on the processing

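The count of called genes between NPtau and NP livers was 0 under every alternative run, with 0.722 as the smallest adjusted p (limma, without NPtau replicate 1). The count at an unadjusted p under 0.05 was 500. It was 1007 over all probe sets with 1 symbol and 150 over genes above the median level, where more and fewer features were tested. Leaving out 1 array gave 281 (without NP replicate 1) to 1241 (without NPtau replicate 1) genes. The difference between the taurine effects under normal and low protein had 5 calls with array weights (Sult3a1, Rab30, Abca8b, Fars2 and Sox4), 1 call with the mean of all probe sets of a gene (Fars2), and 0 to 4 when 1 array was left out. The 4 came without NPtau replicate 2 (Sult3a1, Rab30, Sox4 and S1pr3). The cause was not tested. With a replicate block there were 0 called genes and 592 at an unadjusted p under 0.05. Same-numbered arrays deviated together with correlations of -0.08, 0.08 and 0.19 across genes, and not every array correlated best with its own number. Deviations within groups of 3 arrays cannot settle whether shared numbers mark pairs, so the main fit assumed none. With 3 arrays per group and a median SE of 0.150, a 95% interval reached 0.330 to either side in the median.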
